A study of Mus musculus with 26 samples.

Results

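The glycolysis enzymes described here are 10 mouse genes, Hk1, Hk2, Pfkl, Pfkp, Aldoa, Aldoc, Tpi1, Pgk1, Pgam1 and Ldha, of 18193 genes that the arrays measured. They were chosen by name, and every probe set that the platform annotation assigns to such a gene alone was used, 24 probe sets in all. Their signals were followed in 26 single mouse retinal cells, each hybridised to an Affymetrix array of its own.

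The N1-CKO group held 13 cells from retinas that had received CAG:Cre, a plasmid with Cre recombinase under the broadly active CAG promoter, together with CALNL-GFP, a reporter that makes GFP once Cre has acted. The WT group held 13 cells from retinas that had received CAG:GFP without Cre. Mice of both groups were homozygous for a floxed Notch1 allele on a C57BL/6 background, and the WT pups were siblings of the Cre-treated pups, so the WT cells carried the floxed allele too. Electroporation was done in vivo on postnatal day 0 and cells were taken on postnatal day 3, when the retina still holds dividing progenitors beside newly formed neurons. GFP-positive cells were picked by hand, and GFP in an N1-CKO cell reports Cre activity and not the loss of Notch1 itself. No label ties a cell to an animal. Each group was therefore treated as 1 sample, no test between the groups was made, and every SD is a spread between cells.

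Glycolysis turns glucose into pyruvate. Hexokinases (Hk1, Hk2) trap glucose as its phosphate, phosphofructokinases (Pfkl, Pfkp) commit it to the pathway, and aldolases (Aldoa, Aldoc) split the sugar into triose phosphates, which Tpi1 interconverts. Pgk1 makes ATP, Pgam1 moves a phosphate group, and the Ldha subunit of lactate dehydrogenase converts pyruvate to lactate. Proliferating cells and mature photoreceptors are both known for making lactate with oxygen present, and Hk2 and Ldha are the isoforms usually tied to that behaviour.

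Several glycolysis genes are textbook targets of the hypoxia-inducible factor HIF-1. Promoter windows were searched for ACGTG, a form of the core of its binding element. Other forms of the core were not searched. Windows of 3 enzymes that nearly every cell held are printed here because they contain ACGTG on either strand. Next to them is the window of Ldhb, the lactate dehydrogenase subunit that differed most between the groups. Sequences are from RefSeq on GRCm38.p6 and run from 250 bases before the gene start to 50 bases after it, on the gene's own strand. Capitals mark ACGTG or its reverse complement CACGT. The windows are chrX:106186850-106187149 (plus strand) for Pgk1, chr19:41911621-41911920 (plus strand) for Pgam1, chr7:46845554-46845853 (plus strand) for Ldha and chr6:142507908-142508207 (minus strand) for Ldhb.
Pgk1: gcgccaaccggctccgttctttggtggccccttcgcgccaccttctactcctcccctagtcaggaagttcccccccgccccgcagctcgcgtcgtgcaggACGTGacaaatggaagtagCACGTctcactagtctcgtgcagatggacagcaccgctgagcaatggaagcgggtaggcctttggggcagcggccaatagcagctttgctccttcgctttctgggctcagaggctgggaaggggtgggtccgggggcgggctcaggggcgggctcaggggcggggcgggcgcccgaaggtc
Pgam1: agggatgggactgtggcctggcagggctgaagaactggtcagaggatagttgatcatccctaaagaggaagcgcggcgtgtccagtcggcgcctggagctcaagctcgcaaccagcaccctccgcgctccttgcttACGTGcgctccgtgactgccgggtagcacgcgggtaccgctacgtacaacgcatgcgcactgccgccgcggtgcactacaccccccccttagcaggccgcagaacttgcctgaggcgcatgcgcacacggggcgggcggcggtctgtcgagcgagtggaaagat
Ldha: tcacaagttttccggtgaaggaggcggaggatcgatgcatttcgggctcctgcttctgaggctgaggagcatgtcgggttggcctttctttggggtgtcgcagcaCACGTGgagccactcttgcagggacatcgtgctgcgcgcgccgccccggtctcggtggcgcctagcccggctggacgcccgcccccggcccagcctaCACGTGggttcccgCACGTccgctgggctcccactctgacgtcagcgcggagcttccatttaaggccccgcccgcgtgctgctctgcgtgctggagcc
Ldhb: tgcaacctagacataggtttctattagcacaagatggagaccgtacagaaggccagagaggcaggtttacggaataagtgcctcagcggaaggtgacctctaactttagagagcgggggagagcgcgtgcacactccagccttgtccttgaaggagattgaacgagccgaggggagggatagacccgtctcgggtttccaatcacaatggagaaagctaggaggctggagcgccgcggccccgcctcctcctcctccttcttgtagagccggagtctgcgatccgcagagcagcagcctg
The Ldha window held 5 matches, counting both strands of the palindrome CACGTG, the Pgk1 window held 2, the Pgam1 window held 1 and the Ldhb window held 0. Windows with 0 matches, which are not printed, include that of Tpi1 and the second window of Ldha, and the 3 windows of Aldoa held 1, 1 and 0. Over all 10 enzyme genes, 7 had a match in at least 1 of their windows, and 8 of their 15 windows held the motif. The motif occurred in 6447 of 32851 mouse promoter windows of this length, 19.6%. ACGTG contains CG, and this share was not matched for the CG content of the enzyme windows. The Aldoa windows that hold a match overlap, so the same match can be counted in both. A match describes the letters of a window and is no measured binding site. A window with 0 matches can still hold another form of the core. The printed Ldhb window holds GCGTG, a form that was not searched, as do the printed Pgam1 and Ldha windows.

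The signal is the deposited array intensity on a linear scale, made with MAS5. It can be compared between cells for a given probe set, but not between probe sets, so no enzyme is called more abundant than another. Signals under 25.02, the median over all arrays, were raised to that floor before log2 was taken. Detection of a gene means that its probe set was at or above the 90th percentile of the array it was read on, as 4504 probe sets were in each cell. Where a gene had several probe sets, the brightest on average stood for the gene.

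Before the enzymes, the cells themselves differed. Of 2 Notch1 probe sets, the brighter was detected in 8 of 13 N1-CKO cells and 10 of 13 WT cells. Its signal ran from 15.9 through a median of 5462 to 39239 in N1-CKO and from 1.09 through a median of 10102 to 23914 in WT. The difference of mean log2 signal was -1.65, and -1.27 for the other probe set, detected in 2 N1-CKO and 3 WT cells. Whether the brighter one reads the deleted stretch is not stated in these sources. All 5 measured cycling markers and all 5 measured progenitor markers had means lower by at least 1 on the log2 scale in N1-CKO cells, and 3 of 4 photoreceptor-directed markers were higher by as much. Of the 8280 genes detected in at least 2 cells, 22.3% were lower and 19.1% higher by at least 1. On 5 N1-CKO and 5 WT arrays the control probe set for 18S ribosomal RNA was bright (12106 to 93363), against 26.9 to 2059 on the others, and several results are given within these high 18S and low 18S arrays. Within the high 18S arrays the progenitor markers Pax6 and Fgf15 were not lower (1.77 and 0.01). Sox2 (-0.96), Cdk1 (-0.40) and Top2a (-0.61) were lower there by less than 1, and the other cycling and progenitor markers by at least 1. The 3′ over 5′ ratio of the Gapdh control probe sets, which rises as RNA is degraded or copied incompletely, had a median of 2.67 (1.46 to 245) in N1-CKO cells and 1.79 (1.40 to 3.26) in WT cells. No pair of arrays held identical values.

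The lower steps of the pathway were detected in nearly every cell of both groups. Aldoa was detected in 11 of 13 N1-CKO cells and 12 of 13 WT cells, Tpi1 in 12 and 11, Pgk1 in 11 and 13, Pgam1 in 12 and 13, and Ldha in 13 and 12. At least 23 of 26 cells thus held each of these enzymes, a breadth reached by 315 of 18193 genes, 1.73%. All 5 together were detected in 10 of 13 N1-CKO cells and 11 of 13 WT cells. A cell held a median of 7 of the 10 enzymes in N1-CKO (range 3 to 8) and 7 in WT (range 2 to 8).

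**Figure D1:**
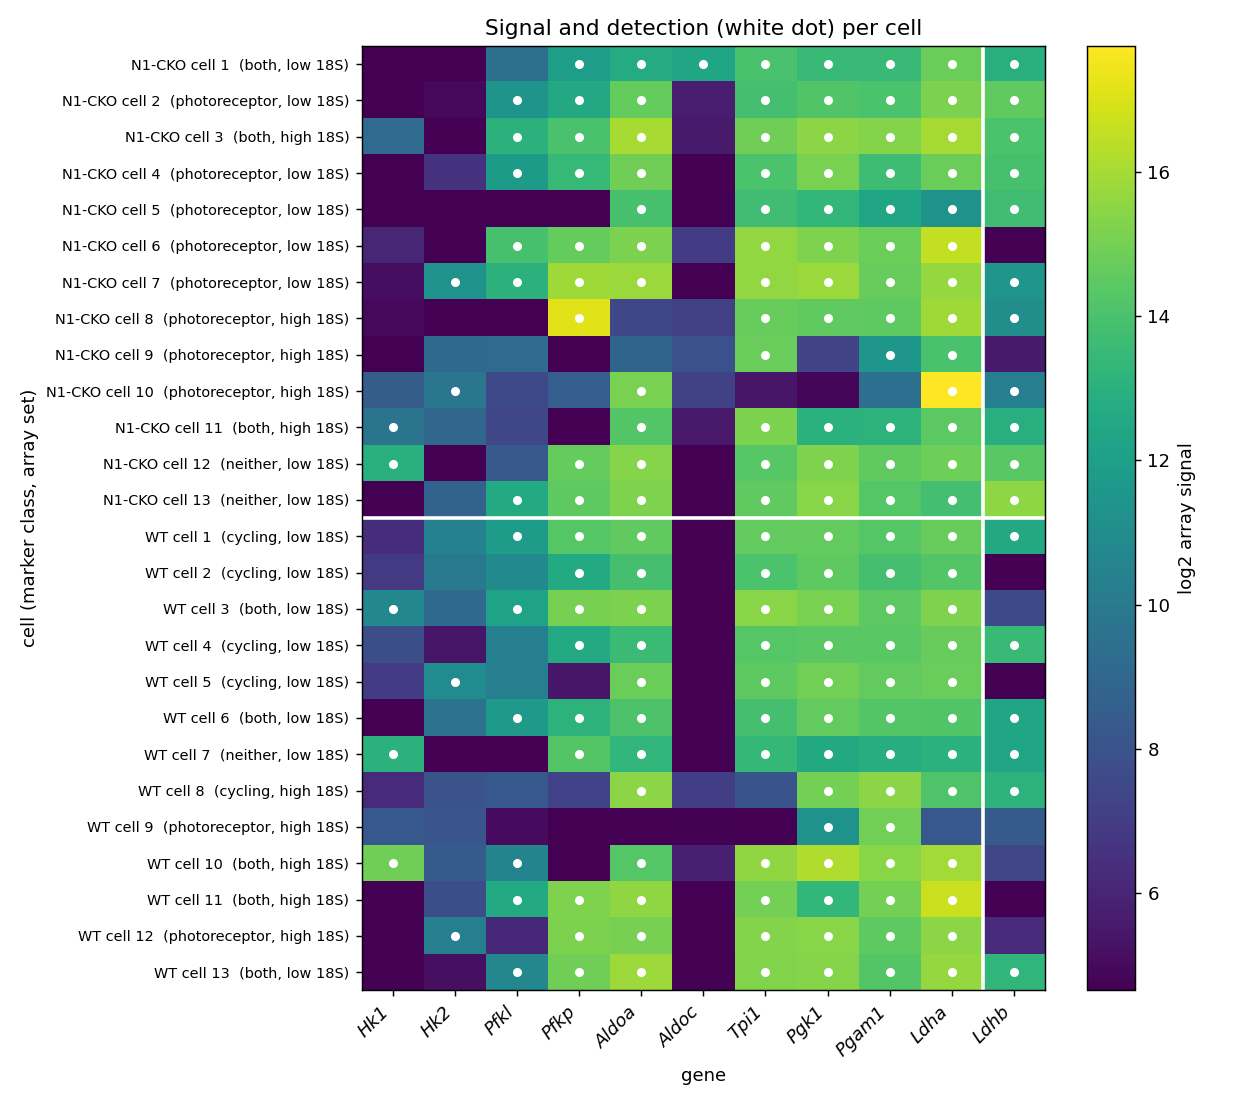
Signal of the 10 enzyme genes and of Ldhb in each of 26 cells, N1-CKO above WT, coloured by log2 array signal, with a white dot where the gene was detected and the marker class and array set beside each cell. The columns from Aldoa to Ldha, apart from Aldoc, are dotted almost throughout in both groups, the hexokinase columns hold 5 and 4 dots, and gaps in the lower steps sit in high 18S cells.

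At hexokinase, the entry step, Hk1 or Hk2 was detected in 4 N1-CKO and 5 WT cells. Pfkl or Pfkp was detected in 9 N1-CKO and 10 WT cells. Both counts leave out isoforms outside the 10 enzymes, such as Pfkm. They do not rank the steps, because signals of different probe sets cannot be compared. Hk1 ranged from 1.31 through a median of 30.1 to 7870 in N1-CKO cells, and from 1.68 through a median of 116 to 30779 in WT cells. It passed the detection level in 2 N1-CKO cells (15.4%, exact 95% interval 1.92 to 45.4%, counting error only) and 3 WT cells (23.1%, 5.04 to 53.8%). Most cells lay under the detection level in both groups, and a few stood far above it. The second Hk1 probe set was detected in no cell of either group.

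Hk2 showed a different picture. Its signal ran from 7.95 through a median of 30.8 to 2581 in N1-CKO cells, and from 17.6 through a median of 323 to 1998 in WT cells. It was detected in 2 cells of each group, but 7 of 13 N1-CKO cells and 12 of 13 WT cells lay above the floor. The highest values were alike in both groups, and the groups parted at signals under the detection level. The mean log2 signal was 6.71 ± 2.49 in N1-CKO and 8.28 ± 2.09 in WT (SD, n = 13 cells each), a difference of -1.57. It was -1.08 within the high 18S arrays and -1.88 within the low 18S arrays. For Hk1 the means were 6.49 ± 2.72 in N1-CKO and 7.67 ± 3.33 in WT, a difference of -1.19, with -0.33 within the high 18S arrays and -1.72 within the low 18S arrays. The Hk1 difference was -0.58 without WT cell 10 and -0.74 without WT cell 7.

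No cell had both hexokinases detected. Hk1 was detected alone in 5 cells, Hk2 alone in 4, and neither in 17 of 26. The Hk1 cells were N1-CKO cells 11 and 12 and WT cells 3, 7 and 10, and the Hk2 cells were N1-CKO cells 7 and 10 and WT cells 5 and 12. With so few detections this absence of overlap depends on the detection level: with the 80th percentile in place of the 90th, Hk1 was detected in 10 cells, Hk2 in 15 and both in 5. Across the 26 cells the log2 signals of Hk1 and Hk2 had a Spearman correlation of 0.02, a description over cells that share an amplification procedure and an array scaling.

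Cells were also sorted by marker detection into classes, which are ranges of a count and not cell types. A cell counted as cycling with at least 3 of 5 measured markers (Mki67, Top2a, Cdk1, Ccna2, Nusap1) and as photoreceptor-directed with at least 2 of 4 (Otx2, Crx, Nrl, Prdm1). Cycling only cells numbered 0 in N1-CKO and 5 in WT, photoreceptor-directed only cells 8 in N1-CKO and 2 in WT, cells with both 3 in N1-CKO and 5 in WT, and cells with neither 2 in N1-CKO and 1 in WT. The classes were spread unevenly over the groups, with all cycling only cells in WT, where class and group cannot be told apart. For cycling, 3 cells stood at the limit and 2 just under it, and for photoreceptor-directed, 2 stood at it and 2 just under.

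Hk1 was detected in 0 of 10 photoreceptor-directed only cells and 0 of 5 cycling only cells, against 3 of 8 cells with both marker sets and 2 of 3 with neither. Hk2 was detected in 3 of 10 photoreceptor-directed only cells, of which 2 of 8 were N1-CKO and 1 of 2 WT, and in 1 of 5 cycling only cells. It was detected in 0 of the 8 cells with both sets and 0 of the 3 with neither. These counts moved with the setting. When cells were classed by Mki67 and Otx2 alone, Hk1 stayed undetected in all 8 photoreceptor-directed only cells and all 5 cycling only cells, and Hk2 was found in 1 of 10 cells with both markers. At the 80th percentile, where the classes change too, Hk1 was found in 1 of 9 photoreceptor-directed only cells and in the 1 cycling only cell, and Hk2 in 8 of 13 cells with both marker sets and 1 of 3 with neither. With a common signal threshold Hk2 was found in 1 of 8 cells with both sets, and at the 95th percentile in 0 of 26 cells.

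Of the phosphofructokinases, Pfkp and Pfkl were each detected in only a part of the cells of both groups. Pfkp, the platelet-type isoform, ran from 7.15 through a median of 10891 to 148868 in N1-CKO cells, and from 7.01 through a median of 8753 to 37765 in WT cells. It was detected in 9 of 13 cells of each group (69.2%, exact 95% interval 38.6 to 90.9%), at 4134 or more in the N1-CKO cells and 6515 or more in the WT cells. In the cells without detection it reached at most 375 in N1-CKO and 158 in WT. On this probe set a wide gap thus separated cells with and without detection in both groups. The brighter of the other Pfkp probe sets was detected in 1 N1-CKO and 0 WT cells, and the dimmer in 0 cells of either group. Their rank correlations with the probe set used were 0.15 and -0.06, and their group differences 1.14 and 0.21. The split into cells with and without Pfkp therefore rests on 1 of 3 probe sets.

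Pfkl, the liver-type isoform, ran from 10.9 through a median of 725 to 15566 in N1-CKO cells, and from 8.91 through a median of 1504 to 6391 in WT cells. It was detected in 6 cells of each group (46.2%, 19.2 to 74.9%). A second Pfkl probe set was detected in 5 cells of each group, in 10 of the same 12 cells, with a rank correlation of 0.73 between the probe sets. Group means of both isoforms lay close together, with a difference of 0.15 for each. Leaving out single cells turned both signs, from -0.27 (without WT cell 7) to 0.58 (without N1-CKO cell 8) for Pfkl and from -0.42 (without WT cell 10) to 0.74 (without N1-CKO cell 9) for Pfkp. Pfkl was detected without Pfkp in 1 cell, Pfkp without Pfkl in 7, both in 11 and neither in 7. Among WT cells, Pfkl was found in 5 of 5 cells that held both marker sets and in 1 of 5 cycling only cells. Among N1-CKO cells it was found in 1 of 3 with both sets and 4 of 8 photoreceptor-directed only cells.

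At the aldolase step, Aldoa was the isoform detected. It ran from 171 through a median of 31290 to 66572 in N1-CKO cells, and from 7.19 through a median of 23982 to 59111 in WT cells, and the groups overlapped over almost the whole range. Its means were 13.81 ± 2.67 in N1-CKO and 13.87 ± 2.88 in WT, a difference of -0.06. That value was -0.68 within the high 18S arrays, 0.32 within the low 18S arrays, -0.83 without WT cell 9 and 0.47 without N1-CKO cell 8. Aldoa was undetected in N1-CKO cells 8 and 9 and WT cell 9, which were photoreceptor-directed only and on high 18S arrays. All 5 Aldoa probe sets have IDs that mark probes shared with other sequences, so signal from near-identical copies may be included. Of the 4 bright ones, those that do not stand for the gene were detected in 12 or 13 cells of each group, and rank correlations among the 4 were 0.88 to 0.96.

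Aldoc, the brain-type isoform, was detected in N1-CKO cell 1 alone, at 5372. Its signal ran from 3.60 through a median of 48.3 to 5372 in N1-CKO cells and from 1.31 through a median of 6.26 to 137 in WT cells. Apart from N1-CKO cell 1 the highest N1-CKO value was 250.2. Detection in 0 of 13 WT cells allows a share of up to 24.7% (exact 95% bound). Its mean was higher in N1-CKO by 1.35 (6.28 ± 2.18 in N1-CKO, 4.93 ± 0.72 in WT), a difference made of values near or at the floor, where 4 N1-CKO and 10 WT cells lay, and it was 0.84 without N1-CKO cell 1. The second Aldoc probe set was detected in 0 cells of either group, reached at most 167 in N1-CKO cells, and gave a difference of 0.38. The only detection of Aldoc thus rests on 1 of 2 probe sets. Aldoa without Aldoc was detected in 22 of 26 cells, both in 1, Aldoc alone in 0 and neither in 3. No shift from Aldoa to Aldoc was seen in either marker class: Aldoc was detected in 0 of 5 cycling only and 0 of 10 photoreceptor-directed only cells.

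**Figure D2:**
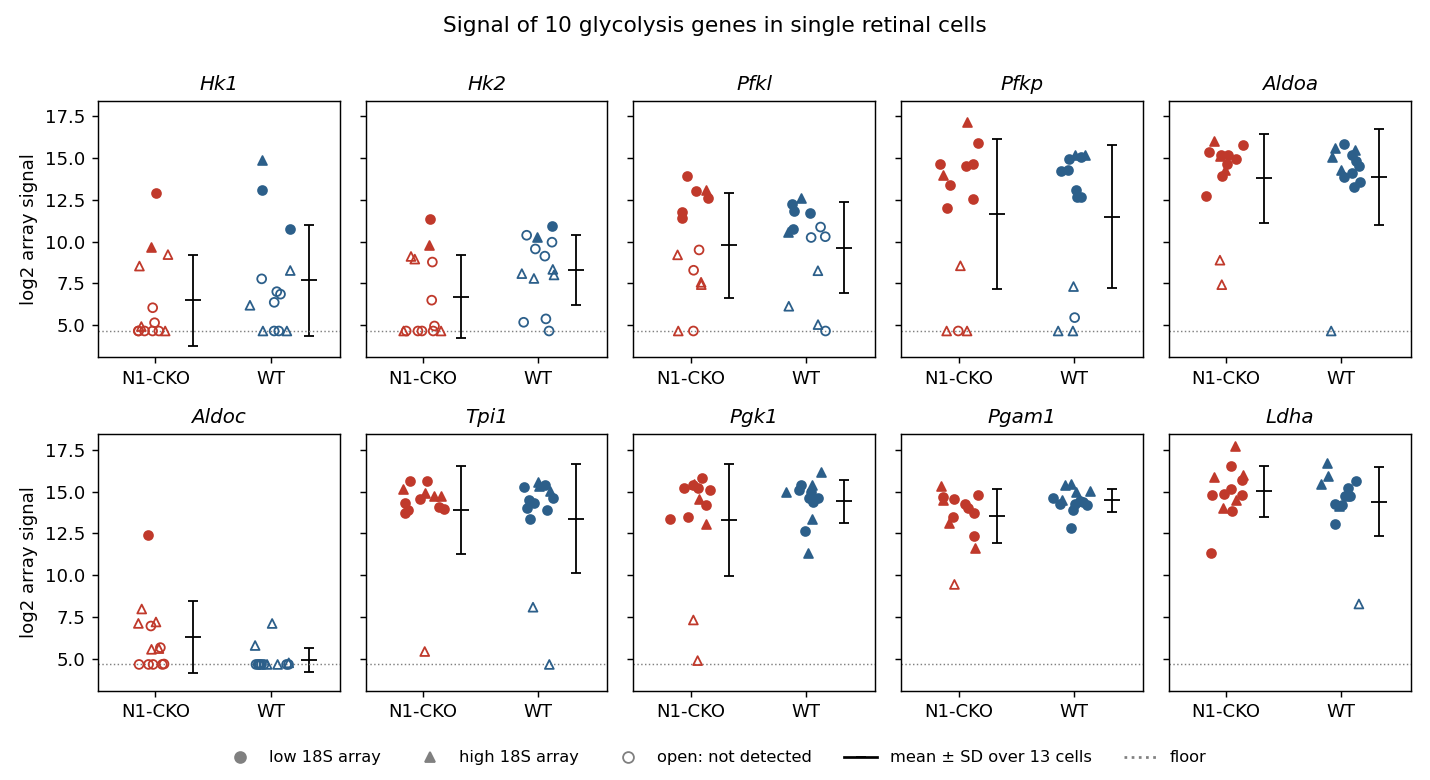
Log2 array signal of each of the 10 enzyme genes in 13 N1-CKO cells (left, red) and 13 WT cells (right, blue), filled where detected, triangles for high 18S arrays, with the mean ± SD over cells and the floor as a dotted line. Pfkp, on the probe set that stands for the gene, splits into bright and dark cells in both groups. The few dark cells for Pgk1, Pgam1 and Tpi1 are high 18S arrays.

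Tpi1 had similar medians in both groups. It ran from 42.8 through a median of 24479 to 51578 in N1-CKO cells, and from 24.5 through a median of 23498 to 48055 in WT cells, with means of 13.91 ± 2.62 in N1-CKO and 13.38 ± 3.26 in WT. Its 3 probe sets were detected in the same 23 cells and had rank correlations of 0.97 to 0.99. The undetected cells were N1-CKO cell 10 and WT cells 8 and 9. In the low 18S arrays, where every cell held Tpi1, the group difference was 0.06, and in the high 18S arrays it was 1.27. Over all cells it was 0.52, with -0.21 without WT cell 9 and 1.23 without N1-CKO cell 10, so its sign rested on single cells.

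Pgk1 and Pgam1 differed between the groups in the high 18S arrays and little in the low 18S arrays. Pgk1 ran from 29.3 through a median of 24162 to 56945 in N1-CKO cells, and from 2537 through a median of 25178 to 73831 in WT cells. The medians were close, while N1-CKO cells 9 and 10, at 159 and 29.3, lay under every WT cell. The mean was 13.31 ± 3.36 in N1-CKO and 14.42 ± 1.30 in WT, a difference of -1.11. Within the high 18S arrays, which hold both of these cells, the difference was -3.20, and within the low 18S arrays it was 0.20. It was -0.41 without N1-CKO cell 10 and -0.61 without N1-CKO cell 9, and the other probe sets gave -0.62 and -0.89.

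Pgam1 ran from 695 through a median of 16775 to 40914 in N1-CKO cells, and from 7271 through a median of 22088 to 45886 in WT cells. N1-CKO cells 5, 9 and 10 lay under every WT cell. Its mean was 13.52 ± 1.61 in N1-CKO and 14.49 ± 0.69 in WT, a difference of -0.97, with -2.29 within the high 18S arrays and -0.14 within the low 18S arrays, and -0.63 without N1-CKO cell 10. Cell 10 of N1-CKO was the only cell without detected Pgam1.

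Ldha was detected in every N1-CKO cell. It ran from 2550 through a median of 30161 to 221078 in N1-CKO cells, and from 308 through a median of 27140 to 108039 in WT cells. The highest value came from N1-CKO cell 10, the cell with Tpi1, Pgk1 and Pgam1 undetected, and the lowest from WT cell 9, the only cell without detected Ldha. The means were 15.01 ± 1.54 in N1-CKO and 14.39 ± 2.06 in WT, a difference of 0.62, with 1.52 within the high 18S arrays and 0.05 within the low 18S arrays. Leaving out each cell in turn gave 0.11 (without WT cell 9) to 0.93 (without N1-CKO cell 5), so the sign stayed and the size rested on single cells.

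Over the set of enzymes, 5 of the 10 enzymes had a higher and 5 a lower mean in N1-CKO, and the median difference was 0.04 (-0.62 without WT cell 9). The 9 enzymes other than Aldoc were detected in at least 2 cells, as were 8280 genes in all. Their median difference was -0.06, against -0.04 over the 8280 genes. Lower by at least 1 on the log2 scale were 3 of these 9 (Hk1, Hk2 and Pgk1), while 22.3% of the 8280 genes were lower by as much. Higher by at least 1 were 0 of 9, while 19.1% of the 8280 genes were higher by as much, and 41.4% differed either way. Each mean mixes how many cells held a transcript with its level in them. The enzymes' count lay near this background, and nothing particular to them is read from it.

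The cells with the fewest enzymes were on high 18S arrays. N1-CKO cells 9 and 10 held 3 of the 10 enzymes, WT cell 9 held 2 and WT cell 8 held 4. Next came N1-CKO cell 8, also on a high 18S array, and N1-CKO cell 5, on a low 18S array with a Gapdh ratio of 245, with 5 enzymes each. In that array set the median was 5 enzymes in N1-CKO (3 to 7) and 7 in WT (2 to 7). On the low 18S arrays it was 7 in N1-CKO (5 to 8) and 7 in WT (6 to 8). Across the 26 cells the number of enzymes detected had a Spearman correlation of -0.59 with the 18S signal and 0.48 with the number of probe sets above a common bright level. It was 0.20 with the Gapdh ratio, 0.11 with the count of cycling markers and 0.11 with the count of photoreceptor-directed markers. The part of the array set in these gaps was not tested.

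Among the enzymes of the lower steps, all pairs had positive Spearman correlations over the 26 cells, between 0.35 for Pgam1 with Ldha and 0.62 for Aldoa with Pgk1. Weaker pairs included Tpi1 with Pgam1 (0.37), Pgk1 with Ldha (0.38) and Aldoa with Tpi1 (0.41), and stronger ones Tpi1 with Pgk1 (0.60) and Pgk1 with Pgam1 (0.58). Pfkl with Aldoa gave 0.58. Hk1 and Hk2 correlated at -0.17 to 0.24 with each of the other enzymes except Aldoc. Aldoc gave -0.33 with Pfkp. Outside the set, the genes most like the mean of the 10 enzymes among 4675 ranked were Mtmr3 (0.78), Rps15 (0.73), Tle5 (0.70), Tcp1 (0.69), Mbd3 (0.64), Eed (0.64), Gpx4 (0.63) and Ndufa4l2 (0.62). All cells share the amplification procedure and the array scaling.

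The other pathway genes put these values in context. Of 15 further glycolysis genes, 10 were measured and 5 detected in at least 2 cells, of which 2 had means higher by at least 1 and 1 lower by as much. Over the 8280 genes detected in at least 2 cells, 19.1% were higher and 22.3% lower by at least 1. These shares also stand beside the counts of the gene lists that follow. The lists are small, and nothing particular to a list is read from its count. Pkm, the pyruvate kinase of most tissues, was detected in all 13 cells of each group, at 14.84 ± 0.55 in N1-CKO and 14.27 ± 1.64 in WT. Bpgm, which diverts a glycolytic intermediate to bisphosphoglycerate, was detected in 7 cells of each group, with a difference of 2.15 within the high 18S arrays and -1.67 within the low 18S arrays. Pfkm, the muscle-type phosphofructokinase, was detected in 6 N1-CKO and 3 WT cells with a difference of 1.54, and Eno3, the muscle-type enolase, in 1 N1-CKO and 5 WT cells with a difference of -1.10. The Eno3 difference was 0.36 within the high 18S arrays, -2.01 within the low 18S arrays and -0.69 without WT cell 3. Gapdh was read by control probe sets alone, and its 3′ probe set was detected in 13 cells of each group with a difference of 0.06.

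Ldhb, the subunit that favours the conversion of lactate to pyruvate, differed most among them. It was detected in 11 of 13 N1-CKO cells (84.6%, exact 95% interval 54.6 to 98.1%) and 6 of 13 WT cells (46.2%, 19.2 to 74.9%). These intervals cover counting error only and do not measure a difference between the groups. Its signal ran from 13.6 through a median of 7468 to 47114 in N1-CKO cells, and from 6.50 through a median of 328 to 11727 in WT cells. In 6 N1-CKO cells it exceeded every WT cell, and 7 WT cells lay at or under 328, where only 2 N1-CKO cells lay.

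The Ldhb means were 11.93 ± 3.37 in N1-CKO and 9.29 ± 3.65 in WT, a difference of 2.64, and the other 3 probe sets gave 2.53, 2.81 and 2.55. It was 2.86 within the high 18S arrays, with 4 of 5 N1-CKO and 1 of 5 WT cells detected, and 2.51 within the low 18S arrays, with 7 of 8 N1-CKO and 5 of 8 WT cells detected. Among cells with both marker sets Ldhb was detected in 3 of 3 N1-CKO and 2 of 5 WT cells, and among photoreceptor-directed only cells in 6 of 8 N1-CKO and 0 of 2 WT cells. Ldha and Ldhb were detected together in 11 N1-CKO and 6 WT cells, and Ldha alone in 2 N1-CKO and 6 WT cells.

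**Figure D3:**
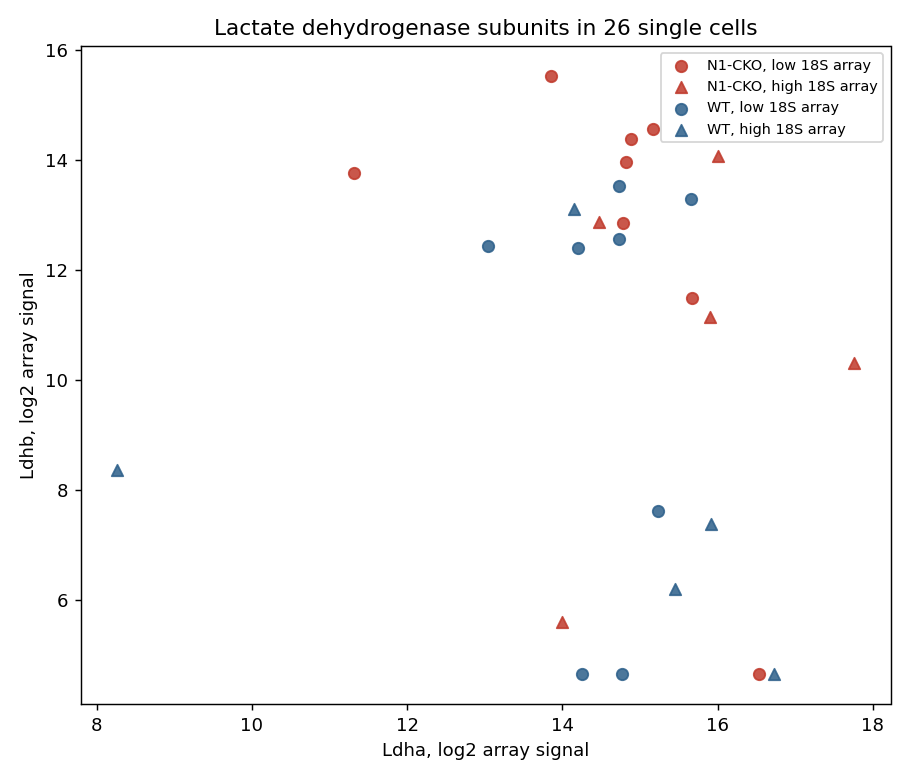
Log2 array signal of Ldha (x axis) and Ldhb (y axis) in each of 26 cells, N1-CKO in red and WT in blue, triangles for high 18S arrays. Ldha is detected in all cells but 1, while 11 N1-CKO cells and 6 WT cells have Ldhb detected, at log2 signals above 10.

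Slc2a1, the glucose transporter GLUT1, was detected in 9 N1-CKO and 11 WT cells, with means of 11.09 ± 4.47 in N1-CKO and 13.18 ± 3.03 in WT, a difference of -2.08. Its other probe sets gave -2.02 and -1.82. The difference was -1.44 within the high 18S arrays and -2.48 within the low 18S arrays. Slc2a1 was detected in all 5 cycling only cells and in 7 of 10 photoreceptor-directed only cells. Among 7 genes of glucose and lactate transport, 4 were detected in at least 2 cells, of which 0 were higher and 1 lower by at least 1. The shares over the 8280 genes were 19.1% higher and 22.3% lower. Slc16a3, a lactate exporter, was detected in 8 cells of each group with a difference of 0.33 (-0.39 within the high 18S arrays and 0.79 within the low 18S arrays), and Bsg, the partner protein of such exporters, in 9 N1-CKO and 11 WT cells with a difference of -0.82.

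Regulators of glycolysis were mixed. Of 12 measured genes, 9 were detected in at least 2 cells, of which 1 was higher and 2 lower by at least 1. Over the 8280 genes, 19.1% were higher and 22.3% lower by as much. Hif1a, a subunit of HIF-1, was detected in 13 N1-CKO and 11 WT cells with a difference of 0.89. Pfkfb3, which makes an activator of phosphofructokinase, was detected in 6 cells of each group with a difference of -0.20, which was 0.77 within the high 18S arrays and -0.80 within the low 18S arrays, and Mycn, a Myc family transcription factor, in 8 N1-CKO and 7 WT cells with a difference of 0.31 (-0.28 within the high 18S arrays and 0.67 within the low 18S arrays). Of the kinases that switch off pyruvate dehydrogenase, Pdk1 was detected in 3 N1-CKO and 6 WT cells (-1.39), Pdk2 in 5 cells of each group (-0.27, with -2.57 within the high 18S arrays and 1.18 within the low 18S arrays) and Pdk3 in 2 N1-CKO and 5 WT cells (-1.44). The Pdk3 difference was 1.38 within the high 18S arrays and -3.19 within the low 18S arrays. The Pdk1 difference was -2.59 within the high 18S arrays, -0.64 within the low 18S arrays and -0.73 without WT cell 9.

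Routes that leave glycolysis were read from gene lists. Of 7 measured genes of pyruvate entry into mitochondria, all were detected in at least 2 cells, with 3 higher and 1 lower by at least 1. Over the 8280 genes, 19.1% were higher and 22.3% lower by as much, and no shift of this small list is read from its count. Mpc1, a part of the mitochondrial pyruvate carrier, was detected in 9 N1-CKO and 5 WT cells with a difference of 1.94, and Dlat, a pyruvate dehydrogenase subunit, in 5 N1-CKO and 2 WT cells with a difference of 1.09 that was 2.39 within the high 18S arrays, 0.27 within the low 18S arrays and 0.67 without N1-CKO cell 5. Pdhb, another subunit of that complex, was detected in 10 N1-CKO and 11 WT cells, with a difference of 0.39 that was 4.06 within the high 18S arrays and -1.90 within the low 18S arrays.

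In the pentose phosphate pathway, 4 of 6 measured genes were detected in at least 2 cells, with 0 higher and 2 lower by at least 1. The shares over the 8280 genes were 19.1% higher and 22.3% lower. Tkt, a transketolase, had a difference of -1.26 (-0.78 without N1-CKO cell 5, 6 or 7 or WT cell 9), Pgd, the enzyme that releases carbon dioxide in this pathway, of -1.19 (-0.39 within the high 18S arrays) and Taldo1, a transaldolase, of 0.57. The Taldo1 difference was 2.79 within the high 18S arrays and -0.82 within the low 18S arrays. The branch to serine had the lowest median of the metabolic lists over all cells, -1.97. All 5 genes were detected in at least 2 cells, 3 were lower by at least 1 and 0 higher. Of the 8280 genes detected in at least 2 cells, 22.3% were lower by at least 1. Phgdh, the entry enzyme of this branch, was detected in 2 N1-CKO and 6 WT cells (-2.65), Shmt2 in 7 N1-CKO and 10 WT cells (-1.98, but -0.54 within the high 18S arrays and -0.32 in cells with a Gapdh ratio up to 3) and Psph in 2 N1-CKO and 7 WT cells (-1.97, but 1.06 within the high 18S arrays). Within the high 18S arrays only Phgdh stayed lower by at least 1 (-1.81), and Psat1 and Shmt1 were higher (0.28 and 0.70). Of 7 gluconeogenesis genes, 3 were detected in at least 2 cells and none differed by 1 or more. A cell held a median of 1 of the 5 cycling markers in N1-CKO (0 to 5) and 4 in WT (0 to 5), in the same direction as the serine branch and Slc2a1, and the part of cycling in these differences was not tested.

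**Figure D4:**
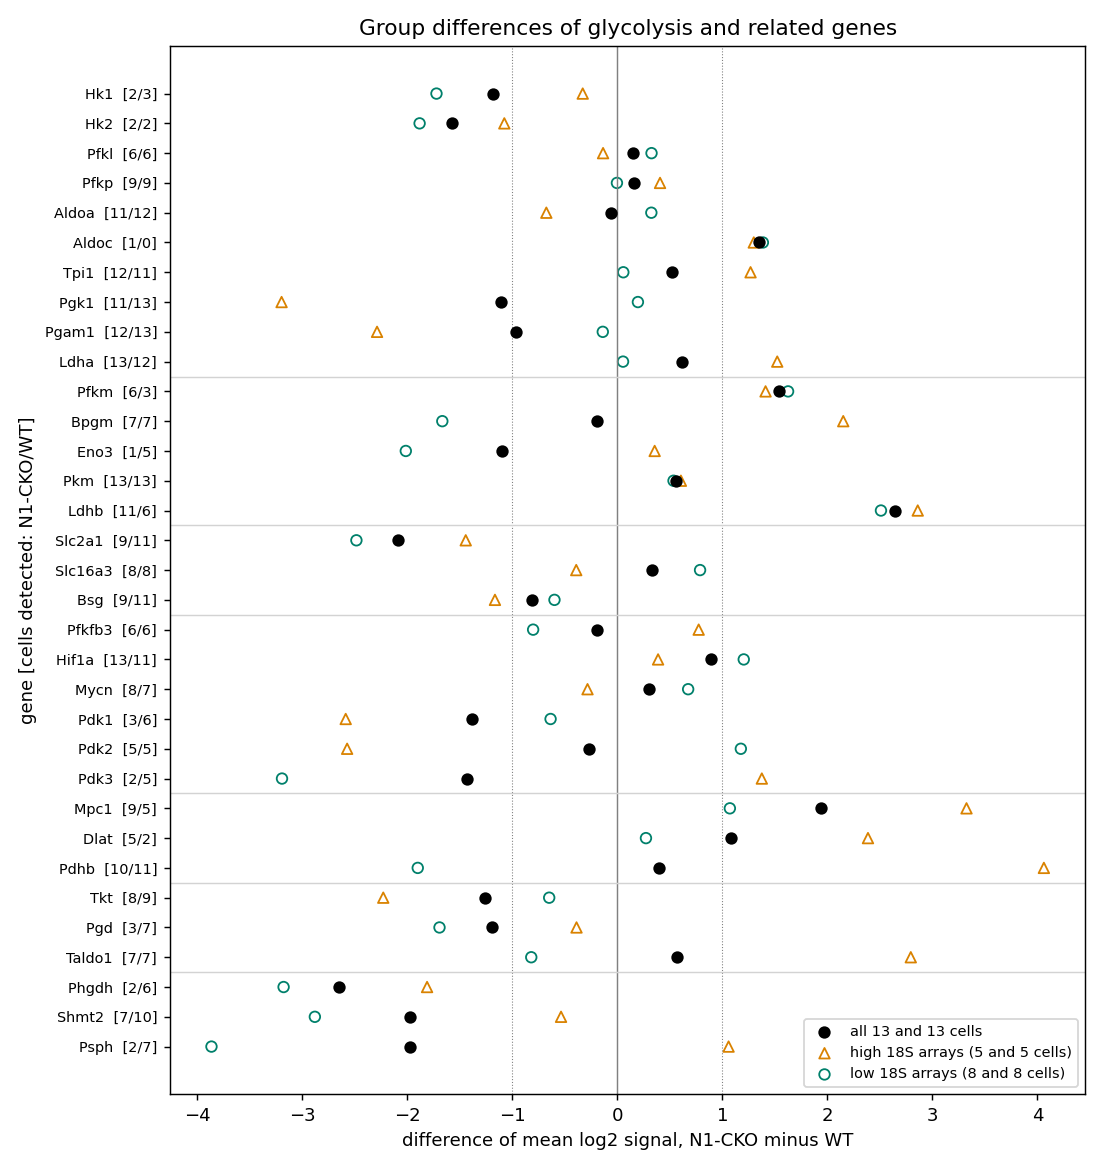
Difference of mean log2 signal, N1-CKO minus WT, for the 10 enzyme genes (top block) and related genes, over all cells (black) and within high 18S (orange triangles) and low 18S arrays (green circles), with detected cells in brackets and dotted lines at a difference of 1 either way. Low 18S values of the enzymes from Pfkl to Ldha, apart from Aldoc, lie near 0. Ldhb and Slc2a1 are among the genes that keep their sign in both array sets, as Hk2, Pfkm and Mpc1 also do.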

How the data were processed

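Single mouse retinal cells, 13 N1-CKO and 13 WT, were profiled on Affymetrix arrays after oligo dT reverse transcription and PCR, per the labels' protocols, so signal comes mostly from near transcript 3′ ends. The authors deposited linear intensity values. MAS5 is named in the submitters' processing notes, without version or parameters. On every array the mean after trimming 2% from each end was 500.0, so total RNA per cell cannot be compared. Precision is limited by the number of arrays.

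Of 45101 probe sets, 34958 had 1 gene symbol in the platform annotation and 932 several, which were left out. Control probe sets were kept apart, leaving 18193 genes. Signals were floored at the pooled median (25.02) and log2 was taken. Detection was the 90th percentile of each array, and differences are N1-CKO minus WT means. The computation of differences was checked by planting known shifts in shuffled values of these arrays, all kept above the floor. That check covered neither values at the floor nor the detection counts. Python 3.11.15, pandas 2.3.3, scipy 1.17.1 and matplotlib 3.10.9 were used.

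The members, gene lists and tests were chosen with earlier results of these data known. Named were all members, genes of the glycolysis, transport and regulator lists detected in at least 6 cells, up to 3 genes with the largest difference from each other metabolic list among those detected in at least 6 cells, and the 8 genes most like the members. Markers of other cell types were checked in the same way. Of these, 5 of 7 measured amacrine and horizontal, 4 of 6 Muller glia, 1 of 4 bipolar (Prkca), 1 of 5 endothelial (Kdr) and 0 of 6 microglia markers were detected in at least 2 cells. Among red blood cell markers, the Hba-a2 probe set was detected in all 26 cells, Hba-a1 in 2 and Alas2 in 0. Alternatives were other floors, detection levels, scaling, probe set choice, array subsets and leaving out each cell.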

Additional observations from a re-analysis of the deposited data

How the results depend on the processing

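With 1 sample a group no test was made, so each alternative gives a value without a threshold. No paired analysis was possible because the shared cell numbers name no animal and no result comes from a test. Of the 9 enzymes detected in at least 2 cells, 3 were lower and 0 higher by at least 1. Of the 8280 genes so detected, 41.4% differed by as much either way. With Aldoc, which is not among the 8280, the count of enzymes that differed by at least 1 was 4 of 10 (Hk1, Hk2, Pgk1 and Aldoc). It was 6 in the high 18S arrays, 5 in cells with a Gapdh ratio up to 3, 3 in the low 18S arrays, 0 with a floor 4 times as high, 1 when a gene's probe sets were averaged, and 2 when every probe set with a shared-transcript mark in its ID was dropped, which leaves 5 enzymes. Leaving out each cell in turn gave 2 (without WT cell 10) to 5. The share of all genes under each alternative is not given here, so these counts are not read as results about the enzymes. An alternative chosen after seeing the data dropped only the probe sets marked as shared between genes and gave 4 of 9 enzymes and a median of 0.15. The difference between the group medians of enzymes detected per cell was 0, and -2 in the high 18S arrays alone; leaving out each cell gave 0 throughout. Otherwise the median enzyme difference lay between -0.42 (Gapdh ratio up to 3) and 0.09 (no floor), and between -0.62 (without WT cell 9) and 0.27 (without N1-CKO cell 9) when each cell was left out. In the high 18S arrays Eno3 turned to 0.36, Pdk3 to 1.38 and Psph to 1.06, and in the low 18S arrays Pgk1 turned to 0.20; the cause was not tested. Ldhb kept its sign in 9 of 9 alternatives (2.38 to 4.51) and Hk2 in 10 of 10 (-3.39 to -0.82). Signals near the floor, which include most Aldoc values and the N1-CKO medians of Hk1 and Hk2, carry no order. The WT medians of Hk1 and Hk2 (116 and 323) lay above the floor, but most hexokinase values lay under the detection level in both groups.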
